A study of Mus musculus with 6 samples.

Results

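Sox4 and Hes1 are the genes of 2 DNA-binding regulators. They were taken as the rows with these symbols among the 31053 genes of single-cell RNA libraries of leukocytes from mouse brain, so the account covers 2 genes. Both were chosen by their measured levels, since earlier results of the same data placed them in a microglial cluster led by heat shock genes, so their levels by time and genotype are given as a description without a test. SOX4 belongs to the C group of the SOX family, whose members bind DNA through a high-mobility-group box and are best known from progenitor cells, and TGF-beta signalling induces it in many cell types. HES1 is a basic helix-loop-helix repressor and a classic target of Notch signalling, in which a cleaved receptor enters the nucleus and joins RBPJ at DNA. HES1 recruits TLE co-repressors, and in mouse macrophages it holds down inflammatory genes such as Il6 and Il12b. Microglia, the resident macrophages of the brain, are known for P2ry12, Tmem119 and other genes of their resting state, which they lose as they become activated.

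The study examined the first hours after stroke in mice that lack CD300a, an inhibitory receptor for phosphatidylserine, in myeloid cells. Mice on a C57BL/6 background had the middle cerebral artery blocked for 60 min by a filament and were killed 1 h or 3 h after reperfusion, or were naive. Brain leukocytes that were CD45+ and excluded propidium iodide were sorted, with 3 brains pooled into each library. The groups were Lyz2-cre (Cd300a-fl/fl with Cre driven by Lyz2, a gene of myeloid cells) and fl/fl (Cd300a-fl/fl without Cre), each naive, at 1 h and at 3 h. All mice carried the floxed Cd300a allele, and only Lyz2-cre mice had the Cre. The series text calls the earliest time 0 h after reperfusion while the sample titles call it naive, and the titles were followed. There was 1 library for each genotype and time, so genotype at a given time cannot be told apart from the pool of brains and its preparation.

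The 6 libraries held between 35479437 and 48478866 unique molecular identifiers (UMIs, each a count of 1 captured transcript molecule), and 47077 cells were used. Marker genes named 37356 of them microglia-like, 70.3% to 87.8% of each library. All 12 microglia markers were detected in the class in every library, and their summed level was 32040 CPM in Lyz2-cre and 27431 CPM in fl/fl libraries at 3 h, against 40359 to 50716 CPM in the 4 others. CPM are the UMIs of a gene per 1000000 UMIs of its class in that library. A microglia-like cell had a median of 5205 UMIs in Lyz2-cre naive, 4919 in fl/fl naive, and 3905 to 4290 in the injured libraries. Shares of cells with a UMI were therefore compared after thinning each cell to 2500 UMIs. This left out 3.05%, 5.62% and 13.9% of Lyz2-cre and 4.20%, 4.66% and 12.2% of fl/fl microglia-like cells at naive, 1 h and 3 h, and kept 34630. Pairs of libraries shared between 12 and 30 cell barcodes.

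Sox4 (ENSMUSG00000076431) is a gene of a single exon of 4795 bases on the minus strand of chromosome 13 (GRCm38, 28948919 to 28953713). On the other strand lies Gm26735, a long noncoding RNA (28943048 to 28951671), and 2616 of its 2649 exon bases lie inside the Sox4 exon. The strand setting of the counting is not given in the sources used here, so the split of UMIs between Sox4 and Gm26735 is uncertain. Hes1 (ENSMUSG00000022528) is on the plus strand of chromosome 16 (30064384 to 30067796), has 4 annotated transcripts with 2 to 4 exons, and no annotated gene overlaps it. The Sox4 promoter is shown because cells rich in Sox4 were also rich in heat shock transcripts and in Hes1, as described further on. RefSeq holds 236 bases ahead of the exon (GRCm38.p6, chr13:28953714-28953949, minus strand), printed 5′ to 3′ with matches to CCAAT or its reverse complement ATTGG, and to TGGGAA, in capitals.
Sox4 promoter: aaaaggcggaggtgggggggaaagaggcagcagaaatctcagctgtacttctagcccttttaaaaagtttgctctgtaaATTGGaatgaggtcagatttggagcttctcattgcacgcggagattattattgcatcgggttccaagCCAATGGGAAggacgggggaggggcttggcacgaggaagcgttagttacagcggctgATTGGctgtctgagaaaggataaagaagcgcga
TGGGAA is the core of the site that RBPJ binds, and CCAAT is the box bound by NF-Y. On either strand the window held 1 match to TGGGAA, overlapping a CCAAT in the run CCAATGGGAA, and 3 matches to CCAAT. Of 32851 promoters in the same table, 20.5% held TGGGAA and 32.7% held CCAAT. The window held no match to GAANNTTC or TTCNNGAA, the paired core of the heat shock element, which 12% of promoters held, nor to TGANTCA, the site of AP-1, which 6.50% held. The N box CACNAG and the class C box CACGNG, both bound by HES repressors, had 1 match (35.2% of promoters) and 2 matches (22.1%), and 1 run of letters counted for both. The SMAD box CAGAC and the E box CANNTG had 1 match each (40.5% and 64.3% of promoters), and TGACGTCA, TATAAA and the NF-kB site, the first 2 known from CREB and TBP, had none (1.39%, 11.9% and 3.62%). These matches describe letters in this window and no binding was measured.

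Sox4 was not confined to injured brains: microglia-like cells of naive brains already held it at a high level. In Lyz2-cre microglia-like cells, 18644, 23365 and 24521 Sox4 UMIs in the naive, 1 h and 3 h libraries gave 607, 804 and 832 CPM. The fl/fl cells held 16822, 17412 and 8122 UMIs, which gave 594, 572 and 390 CPM. The order was thus Lyz2-cre at 3 h, Lyz2-cre at 1 h, then both naive libraries and fl/fl at 1 h close together, with fl/fl at 3 h lowest. The exact Poisson 95% intervals, which cover counting error only, were 822 to 842, 794 to 815, 598 to 616, 585 to 603, 564 to 581 and 382 to 399 CPM in that order, and those of the naive libraries overlapped. In log2 terms Lyz2-cre at 3 h stood 0.45 above its naive library (counting interval 0.43 to 0.48), and fl/fl at 3 h stood at -0.61 (-0.65 to -0.57) relative to its own. Lyz2-cre exceeded fl/fl by 0.031 in naive libraries, 0.49 at 1 h and 1.09 at 3 h, the last being 2.13-fold. Each of these contrasts sets 1 library against another and has no replicate check.

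Hes1 was low in naive microglia-like cells and higher at each later time in both genotypes. Lyz2-cre cells held 403 UMIs (13.1 CPM) when naive, 2000 UMIs (68.9 CPM) at 1 h and 5831 UMIs (198 CPM) at 3 h. In fl/fl cells, 421, 1716 and 2298 UMIs gave 14.9, 56.4 and 110 CPM. No library of an earlier time reached the level of one of a later time. The level at 3 h was 15.1-fold that of the naive library in Lyz2-cre cells (log2 3.91, counting interval 3.77 to 4.06) and 7.42-fold in fl/fl cells (log2 2.89, 2.74 to 3.04). Lyz2-cre stood at -0.18 (-0.38 to 0.017) relative to fl/fl in naive libraries, 0.29 above it at 1 h and 0.84 above it at 3 h on the log2 scale.

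**Figure D1:**
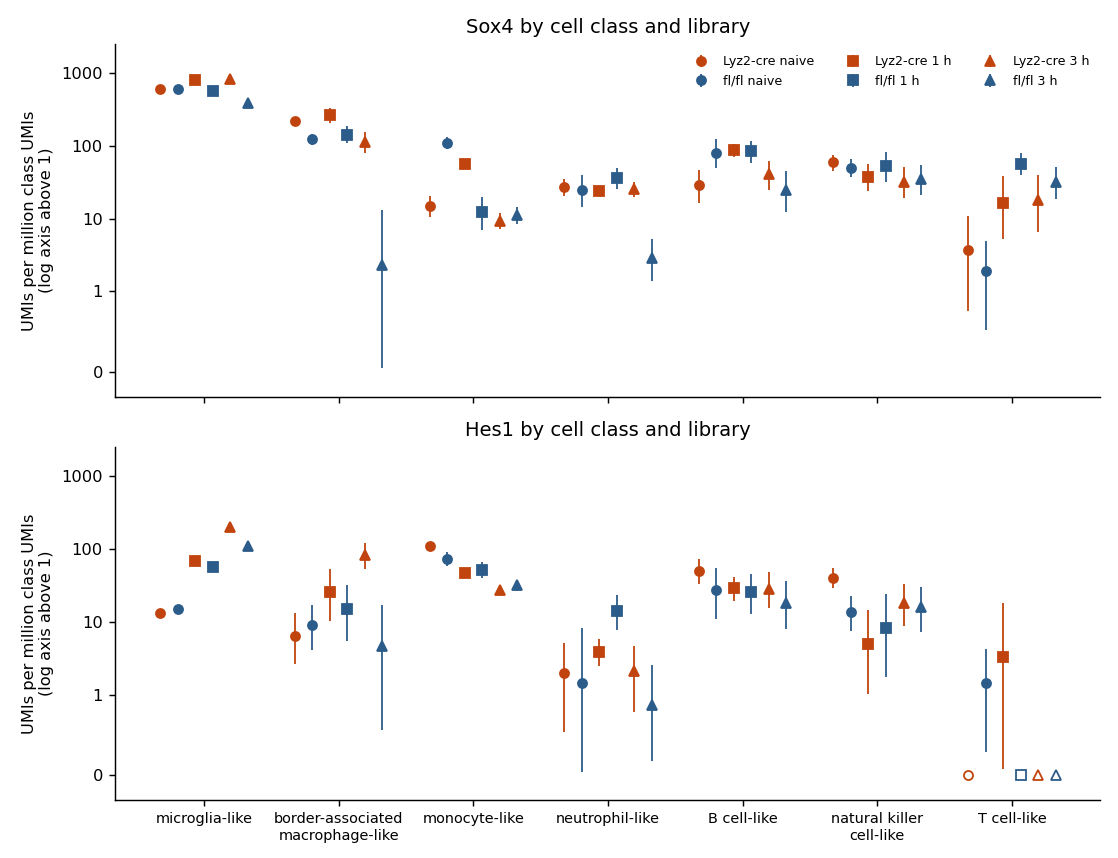
Level of Sox4 and of Hes1 in CPM (symmetric log axis) in 7 cell classes with at least 20 cells in every library; symbols give genotype and time, bars are exact Poisson 95% intervals, and open symbols mark 0 UMIs. Microglia-like cells hold the highest Sox4 in every library, between 390 and 832 CPM, while Hes1 in monocyte-like cells, between 27.4 and 111 CPM, overlaps the microglia-like range of 13.1 to 198 CPM.

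The share of microglia-like cells with a Sox4 UMI did not follow the summed level. At 2500 UMIs per cell, Sox4 was held by 55.0%, 60.1% and 44.7% of Lyz2-cre cells at naive, 1 h and 3 h, and by 52.0%, 50% and 33.5% of fl/fl cells. The corresponding unthinned shares were 72.0%, 69.8% and 53.7%, and 66.4%, 62.0% and 42.3%. Both genotypes thus had their smallest share of holders at 3 h, also in Lyz2-cre cells, whose summed level was then highest. Neutrophil-like cells, taken as a measure of free RNA, held Sox4 in 0.263% to 4.03% of cells at the same thinned depth (median 2253 to 4571 UMIs before thinning), and T cell-like cells in 0.539% to 10.1% (medians 4314 to 5649 UMIs). The microglia-like shares were above these in every library.

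At 3 h more of the Sox4 UMIs lay in few cells. Among cells that held it, the mean number of Sox4 UMIs was 2.77, 3.44 and 5.08 in Lyz2-cre and 2.93, 2.95 and 3.18 in fl/fl libraries at naive, 1 h and 3 h, while the median was 2 in each of the 6. Cells with 10 or more Sox4 UMIs made up 2.37%, 4.48% and 5.43% of Lyz2-cre and 2.84%, 2.60% and 2.11% of fl/fl microglia-like cells. These cells carried 25.5%, 31.8% and 59.8% of all Sox4 UMIs in Lyz2-cre and 32.1%, 28.7% and 35.7% in fl/fl libraries. The Lyz2-cre library at 3 h stood apart, with most of its Sox4 UMIs in few cells. Its variance over the mean was 21.5, against 11.6 in fl/fl at 3 h and between 5.85 and 7.20 in the 4 other libraries, and its richest cell held 123 Sox4 UMIs of 2500.

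Hes1 was held by fewer cells than Sox4, and unlike Sox4 by the largest share at 3 h. It was held by 3.04%, 11.6% and 13.9% of Lyz2-cre and 3.55%, 9.05% and 11.9% of fl/fl microglia-like cells at naive, 1 h and 3 h (unthinned 5.45%, 15.9% and 17.2%, and 5.92%, 12.8% and 15.4%). T cell-like cells held it in 0% to 1.67% of cells at the same depth. Cells with 10 or more Hes1 UMIs were absent from both naive libraries and from Lyz2-cre at 1 h, and made up 0.122% of fl/fl cells at 1 h. At 3 h they made up 1.44% of Lyz2-cre and 0.479% of fl/fl cells and carried 55.2% and 30.7% of the Hes1 UMIs. The variance over the mean was 1.19, 2.12 and 19 in Lyz2-cre cells (naive, 1 h, 3 h) and 1.32, 3.21 and 11.1 in fl/fl cells.

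**Figure D2:**
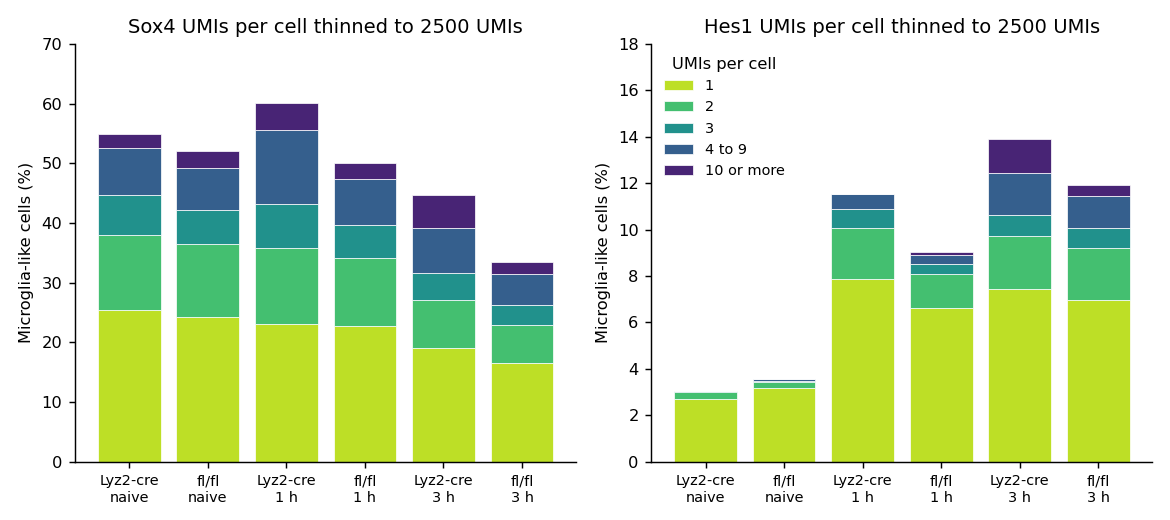
Percent of microglia-like cells, each thinned to 2500 UMIs, that hold 1, 2, 3, 4 to 9, or 10 or more UMIs of Sox4 and of Hes1, stacked for each library. Lyz2-cre at 3 h has fewer Sox4 holders than Lyz2-cre at 1 h (44.7% and 60.1%) but more cells with 10 or more UMIs (5.43% and 4.48%).

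The richest Sox4 cells at 3 h were also rich in inducible heat shock transcripts. Hspa1a and Hspa1b encode the inducible HSP70 chaperone from near-identical copies that can share reads, so their UMIs were added. Gm20481 overlaps Hspa1a on the opposite strand, so the Hspa1a UMIs carry the same uncertainty as those of Sox4. Of the 343 Lyz2-cre cells with 10 or more Sox4 UMIs at 3 h, 65.3% held 5 or more UMIs of this pair, against 24.4% of the other microglia-like cells. Of the 88 such fl/fl cells, 69.3% did, against 31.7% of the others. Hes1 was held by 28.9% of the Sox4-rich Lyz2-cre cells and 13% of the rest, and by 19.3% of the Sox4-rich fl/fl cells and 11.8% of the rest. Cells with 20 or more UMIs of the chemokine genes Ccl3 and Ccl4 were less frequent among the Sox4-rich, at 19% against 24.4% in Lyz2-cre and 30.7% against 38.8% in fl/fl. At 1 h the difference in chaperone UMIs was small in Lyz2-cre (23.2% of 298 Sox4-rich cells and 19.4% of the rest) and larger in fl/fl (37.4% of 171 and 15.1%). The 91 Lyz2-cre cells with 10 or more Hes1 UMIs at 3 h mirrored this, with Sox4 in 78.0% against 44.2% of the others. In fl/fl at 3 h there were 20 such cells, with Sox4 in 45% against 33.4% of the others. The link between Sox4 and chaperone transcripts was one of the earlier results for which the genes were chosen, so these shares are no independent support for it.

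Clustering grouped the microglia-like cells mainly by time, and Sox4 and Hes1 were unevenly spread over the clusters. The clustering used 2000 variable genes and left out Sox4 and Hes1. Both genes were chosen because earlier results placed them in a cluster led by heat shock genes, so cluster levels are descriptions. Cluster 12, led by Hspa1a, Hspa1b, the small heat shock protein gene Hspb1 and the HSP110 gene Hsph1, made up 20.8% of Lyz2-cre and 25.1% of fl/fl microglia-like cells at 3 h. It held 1973 CPM of Sox4 in Lyz2-cre and 865 CPM in fl/fl at 3 h, and 561 and 324 CPM of Hes1. Cluster 13, led by the stress cytokine gene Gdf15, the metallothionein gene Mt2, Spp1, Ccl3 and Ccl4, made up 29.3% and 34.7% and held 196 and 152 CPM of Sox4 and 62.0 and 29.7 CPM of Hes1. All 12 microglia markers were detected in both clusters, although none was among the 10 genes that led either of them against the other classes. Of the Sox4-rich cells at 3 h, 53.6% in Lyz2-cre and 63.6% in fl/fl lay in cluster 12, against 20.3% and 25.4% of all thinned microglia-like cells.

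Cluster 14 was led by Lars2, AY036118 and Gm42418 and had the lowest depth of these clusters, with a median of 3111 UMIs. It made up 22.5% of Lyz2-cre and 20.9% of fl/fl microglia-like cells at 3 h and held 957 and 452 CPM of Sox4. Transcripts of this kind can come from ribosomal RNA and low-quality cells, and their part in the levels was not tested, but without cluster 14 the log2 difference between 3 h and naive was 0.41 in Lyz2-cre and -0.65 in fl/fl cells. At 1 h the largest clusters were 4, which kept homeostatic genes such as P2ry12 and Olfml3 among its leaders, cluster 2, led by the activation genes Rcan1, Nr4a1 and Cd83, and cluster 9, which had Rnase4 and Selenop, the gene of a selenium carrier protein, among its leaders. Sox4 stood at 953 and 691 CPM in cluster 4, 882 and 918 CPM in cluster 9 and 536 and 374 CPM in cluster 2 (Lyz2-cre and fl/fl). Cluster 9 made up 25.1% of Lyz2-cre but 10.4% of fl/fl microglia-like cells at 1 h. In the naive libraries clusters 0, 1 and 3 were close, between 537 and 705 CPM of Sox4.

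**Figure D3:**
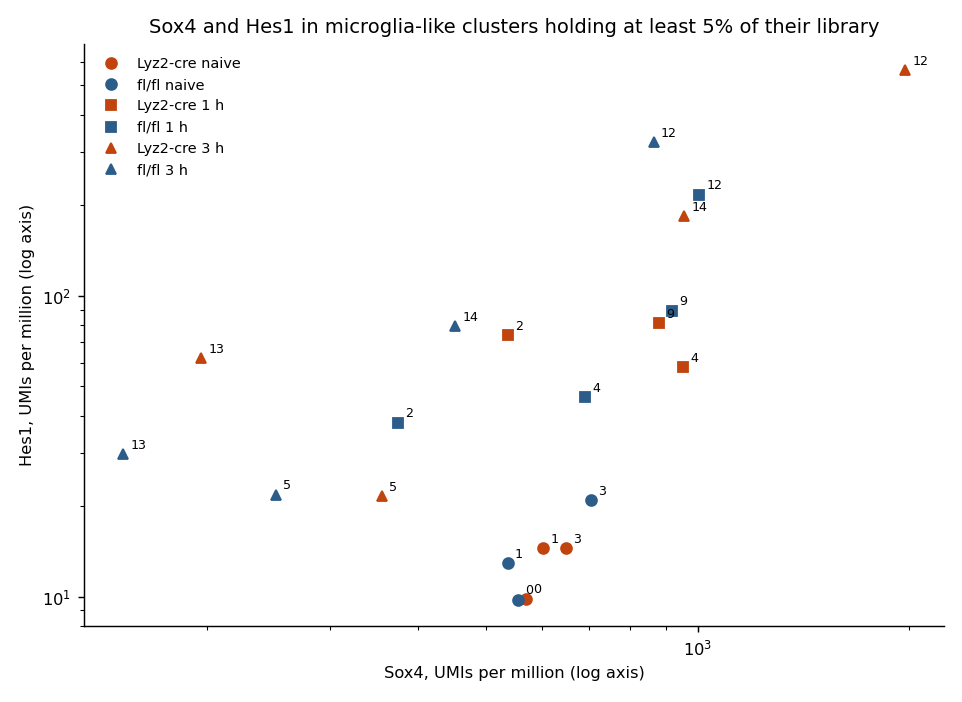
Sox4 (x) against Hes1 (y), both in CPM on log axes, for each microglia-like cluster (number beside the symbol) that holds at least 5% of a library's microglia-like cells; colour gives genotype and shape gives time. Cluster 12, led by heat shock genes, lies at the upper right in both 3 h libraries, cluster 13, led by Gdf15 and chemokine genes, at the far left, and the naive clusters near the bottom.

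Binning the thinned cells by their Hspa1a and Hspa1b UMIs showed where holders were frequent at 3 h. With 0, 1 to 4, 5 to 19 and 20 or more of these UMIs, Sox4 was held by 37.9%, 38.5%, 60.9% and 63.6% of Lyz2-cre cells and by 28.9%, 27.5%, 32.9% and 48.2% of fl/fl cells. The mean Sox4 UMIs per cell were 1.29, 1.54, 3.57 and 5.24 in Lyz2-cre and 0.683, 0.616, 0.890 and 2.28 in fl/fl cells. The increase thus began at 5 UMIs in Lyz2-cre and at 20 UMIs in fl/fl cells. Hes1 shares were higher from bin to bin in both genotypes, at 9.23%, 11.8%, 21.0% and 26.1% in Lyz2-cre and 6.38%, 7.28%, 14.7% and 25.5% in fl/fl cells. At 1 h the Sox4 shares over the same bins were nearly flat in Lyz2-cre (58.1%, 64.4%, 62.6% and 63.5%) and ran 47.6%, 51.6%, 60.7% and 57.5% in fl/fl.

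Over Ccl3 and Ccl4 UMIs the order of the Sox4 shares was the reverse. At 3 h, with 0, 1 to 4, 5 to 19 and 20 or more of these UMIs, Sox4 was held by 50.9%, 47.9%, 39.1% and 37.4% of Lyz2-cre and 45.5%, 39.4%, 30.9% and 26.3% of fl/fl cells. At 1 h the shares were 63.5%, 62.4%, 53.4% and 50.2%, and 57.5%, 48.0%, 46.4% and 40.7%. Microglia-like cells with many chemokine transcripts therefore held Sox4 least often at both times and in both genotypes. The naive libraries also had their lowest share in the top bin, at 42.0% in Lyz2-cre and 49.3% in fl/fl. The mean Sox4 UMIs per cell at 3 h did not decline steadily. They were 2.44, 2.95, 1.82 and 1.71 in Lyz2-cre and 1.16, 1.22, 1.22 and 0.849 in fl/fl cells. Unlike the Sox4 shares, those of Hes1 showed no gradient at 3 h (11.9%, 15.3%, 15.7% and 13.7% in Lyz2-cre, and 11.3%, 13.3%, 14.1% and 10.3% in fl/fl). Reading both scales together at 3 h, Sox4 was held by 65.8% of Lyz2-cre and 48.6% of fl/fl cells with 5 or more chaperone and under 20 chemokine UMIs. It was held by 30.6% and 19.2% of cells with under 5 chaperone and 20 or more chemokine UMIs. Cells high in both lay between, at 54.4% and 38.5%. All these shares come from single libraries and their intervals cover counting error only.

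**Figure D4:**
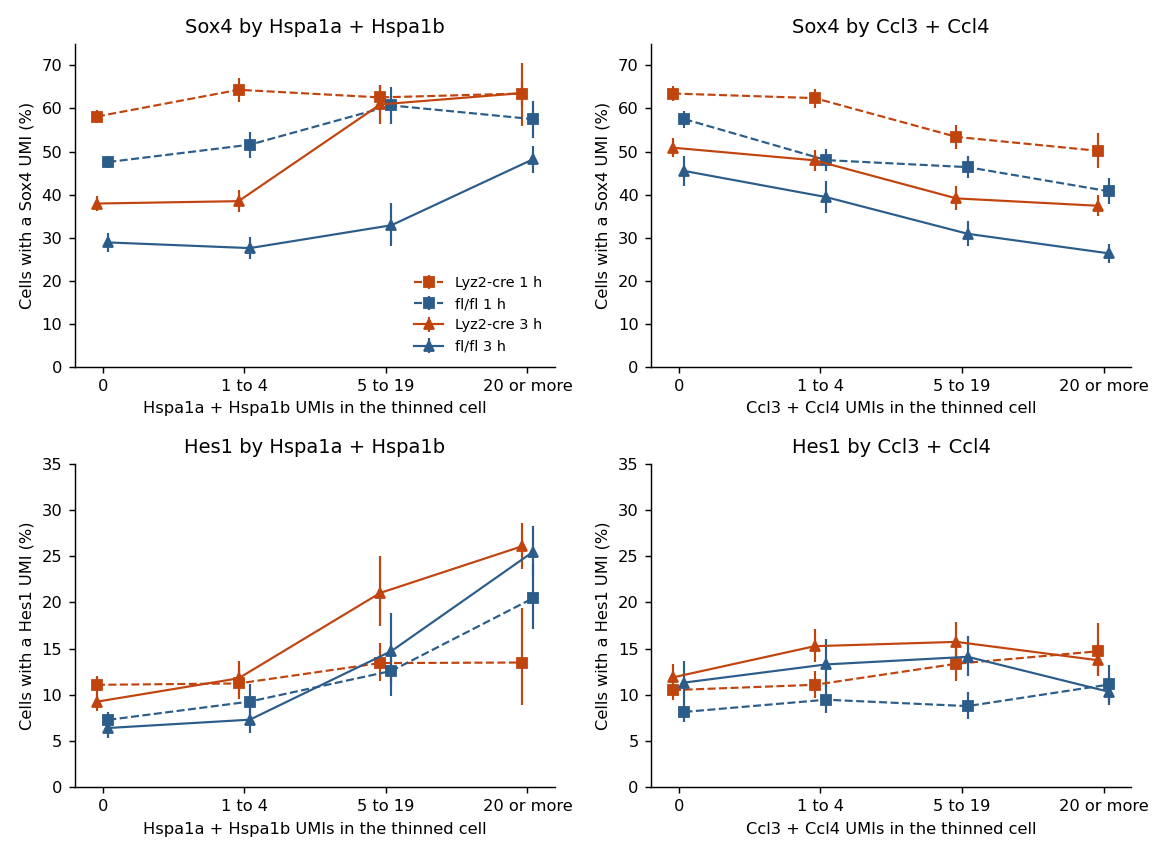
Percent of microglia-like cells (thinned to 2500 UMIs) that hold Sox4 or Hes1, by the number of Hspa1a and Hspa1b UMIs and by the number of Ccl3 and Ccl4 UMIs in the same cell; 1 h is dashed, 3 h solid, and bars are exact Clopper-Pearson 95% intervals. Both genes climb with chaperone UMIs at 3 h, to 63.6% and 48.2% for Sox4 in Lyz2-cre and fl/fl, and the share of cells with Sox4 declines with chemokine UMIs.

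What else the holders express was tested across libraries. In each of the 4 libraries at 1 h and 3 h the UMIs of thinned cells with a Sox4 UMI (3998, 3285, 2824 and 1398 cells in Lyz2-cre 1 h, fl/fl 1 h, Lyz2-cre 3 h and fl/fl 3 h) and of cells without one (2649, 3280, 3498 and 2776) were summed, and values below follow that order of libraries. Holders and non-holders were compared with edgeR's quasi-likelihood test with the library as a block and Benjamini-Hochberg adjustment over all genes. Of 11419 genes, 700 passed 0.05 (6.13%), 158 higher (1.38%) and 542 lower (4.75%) in holders. The 3 h libraries carried much of this, since 249 genes passed without the fl/fl 3 h and 235 without the Lyz2-cre 3 h library, while 1372 passed without Lyz2-cre at 1 h. Before thinning, holders had slightly fewer UMIs than non-holders, with medians of 3965 and 4013, 4237 and 4348.5, 3900 and 4331, and 4151.5 and 4707.

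The largest rise in Sox4 holders was in Gm26735, the transcript antisense to Sox4. It stood at 27.7, 26.2, 146 and 86.7 CPM in holders and at 5.29, 2.56, 12 and 7.49 CPM in non-holders (log2 difference 3.33 ± 0.14 SE, edgeR adjusted p = 7.8e-08). It was higher in holders in 4 of 4 libraries. Its exons lie largely inside Sox4 on the other strand, and the strand setting of the counting is not given. The split of UMIs between the pair is therefore uncertain, and this test may in part set Sox4 against itself. Hist1h2ac, a histone H2A gene, stood at 39.3, 38.5, 62.0 and 27.2 CPM in holders and 29.6, 20.7, 38.2 and 15.3 CPM in non-holders (0.66 ± 0.09, edgeR adjusted p = 0.000793). Other genes among the 10 largest rises had log2 differences between 0.45 and 0.56, among them Gm40841, a noncoding gene 529 kb from Sox4 (0.56), Arrdc3, an arrestin-domain gene (0.49), Rgs3, a regulator of G-protein signalling (0.46), and Pdk1, a kinase that restrains pyruvate oxidation in mitochondria (0.45). Of these, Gm40841, Arrdc3 and Rgs3 missed the threshold without either 3 h library (0.48, 0.46 and 0.42 without fl/fl 3 h; 0.43, 0.38 and 0.34 without Lyz2-cre 3 h), and Pdk1 without those or fl/fl 1 h (0.41, 0.32 and 0.46).

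The link between Sox4 and chaperone transcripts had chosen the genes, so the heat shock values in Sox4 holders are likewise a description. Hspa1b stood at 622, 1380, 4370 and 8706 CPM in Sox4 holders, against 549, 1023, 2156 and 4448 CPM in non-holders. Holders were above non-holders in every library, and the gap was widest at 3 h (0.62 ± 0.14 over the 4 libraries). Its near-identical copy Hspa1a had 537, 1752, 6425 and 14103 CPM in holders and 505, 1319, 3071 and 6547 CPM in non-holders (0.64 ± 0.20). Of 16 tested heat shock and chaperone genes, 1 was past the threshold (Hspa1b), with a median of 0.13 against 2.79e-05 over all genes. It was not past it without either 3 h library (0.52 without fl/fl 3 h, 0.49 without Lyz2-cre 3 h) or under DESeq2 (0.62). With the 3 h libraries alone 9 were higher and 2 lower, where 2653 of 11151 genes passed (23.8%; 10.7% higher and 13.1% lower). With the 1 h libraries alone 1 was higher and 1 lower, where 568 of 10915 passed (5.20%; 0.806% higher and 4.40% lower). With the naive libraries alone 178 of 10920 passed (1.63%; 0.293% higher and 1.34% lower), and no heat shock gene did, while 5 of 9 chemokine genes were lower and 3 of 15 homeostatic genes higher.

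The largest falls in Sox4 holders included a receptor, a cytokine and a lectin gene of activated myeloid cells. Hcar2, the receptor for hydroxybutyrate and niacin, had 3.20, 7.67, 30.7 and 44.6 CPM in holders and 6.04, 35.7, 73.0 and 114 CPM in non-holders (-1.49 ± 0.14, edgeR adjusted p = 0.000121). Il1b, the gene of interleukin 1 beta, had 39.2, 25.6, 57.2 and 49.5 CPM in holders and 78.2, 84.5, 176 and 89.5 CPM in non-holders (-1.36 ± 0.13, edgeR adjusted p = 0.000339). Lgals3, which encodes galectin 3, had 5.10, 3.17, 9.07 and 40.3 CPM against 10.7, 5.37, 27.1 and 84.9 CPM (-1.21 ± 0.12, edgeR adjusted p = 8.37e-05). In each of these genes every library had its lower value in the Sox4 holders. The other largest falls were in Mt2 (-1.34), the oxidant-defence genes Srxn1 (-1.25) and Slc7a11 (-1.17), the chemokine gene Ccl12 (-1.16), the survival gene Bcl2a1d (-1.15), the kinase gene Pim1 (-1.14) and the urokinase receptor gene Plaur (-1.03). Ccl12 missed the threshold without fl/fl 1 h (-1.19) or fl/fl 3 h (-1.11), and the others named here passed without any 1 library.

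By list, 15 of 19 NF-kB and cytokine genes were lower and none higher in Sox4 holders (median -0.49), as were 7 of 9 chemokine genes (median -0.74). Ccl3 had 884, 1424, 2198 and 3252 CPM in holders and 1416, 1945, 3549 and 6476 CPM in non-holders (-0.74 ± 0.07). Csf1, the growth factor of macrophages, had 42.4, 106, 131 and 275 CPM in holders and 76.4, 186, 240 and 451 CPM in non-holders (-0.84 ± 0.05). Ccl3 and Csf1, like Mt2 and Srxn1 among the falls above, were among the genes that led cluster 13, where Sox4 was low. The values of these genes are therefore a description and no independent support. Of the genes of disease-associated microglia, 9 of 16 were lower and none higher (median -0.56), Lgals3, Csf1 and the fatty acid binding protein gene Fabp5 (-1.0) among them. Lower and with none higher were also 10 of 21 immediate early genes, 5 of 10 interferon response genes, and 4 each of 13 unfolded protein and integrated stress genes, 9 oxidant-defence genes and 15 hypoxia and glycolysis genes. Of 11 growth arrest and p53 genes 3 were lower, and no gene of 7 in the cell cycle or 10 of the proteasome passed. The homeostatic microglia list moved the other way, with 5 of 15 genes higher and none lower (median 0.15). Its leading members were P2ry13, Gpr34 and P2ry12, receptors of resting microglia. P2ry12 had 4494, 3973, 2279 and 1918 CPM in holders and 4137, 3410, 1603 and 1339 CPM in non-holders (0.31 ± 0.07, edgeR adjusted p = 0.0266), and missed the threshold without fl/fl 3 h (0.26) or Lyz2-cre 3 h (0.24), as did P2ry13 (0.33 and 0.25) and Gpr34 (0.27 and 0.22).

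Much of this followed the clusters. With equal numbers of Sox4 holders and non-holders drawn from each cluster of each library, an alternative chosen after seeing the data, 131 of 11162 genes passed (1.17%; 0.251% higher and 0.923% lower), 99 of them among the 700. Then 9 disease-associated genes, 5 NF-kB genes and 4 interferon genes were lower, no chemokine gene passed, 1 homeostatic gene was higher, and 1 heat shock gene was lower. Gm26735 (2.94), Il1b (-0.63), Lgals3 (-0.64) and Hcar2 (-0.54) also passed here, and Hspa1b stood at 0.025. Without cluster 14, 406 genes passed (3.57%; 0.669% higher and 2.90% lower), 405 of them among the 700, with 13 NF-kB, 7 chemokine and 9 disease-associated genes lower, 2 homeostatic genes higher and no heat shock gene called. Of 18 marker lists of other cell types, 7 had a higher sum in Sox4 holders in 4 of 4 libraries and 0 a lower one. The largest gap of these was in the 9 B cell markers, at 345, 299, 278 and 215 CPM in holders and 307, 270, 170 and 154 CPM in non-holders. The lists of conventional dendritic cells (log2 0.084 to 0.37), plasmacytoid dendritic cells, which share Siglech with the microglia list (0.045 to 0.16), B-cell precursors (0.046 to 0.50), innate lymphoid cells (0.031 to 0.38), astrocytes (0.070 to 0.24) and endothelial or mural cells (0.11 to 0.38) were higher too. Fscn1 of the conventional dendritic cell list was among the leaders of microglia-like cluster 4, and Slc1a3 of the astrocyte list among those of cluster 5. The 12 monocyte markers, which include Nr4a1, summed to 150, 212, 241 and 369 CPM in holders and 224, 293, 255 and 276 CPM in non-holders, and the 12 neutrophil markers to 504, 239, 282 and 322 CPM against 504, 243, 261 and 281 CPM. The 7 erythroid markers summed to 4.10 CPM in holders and 387 CPM in non-holders of the Lyz2-cre 1 h library and to under 2 CPM on both sides of the 3 other libraries. Their part in the differences was not tested.

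**Figure D5:**
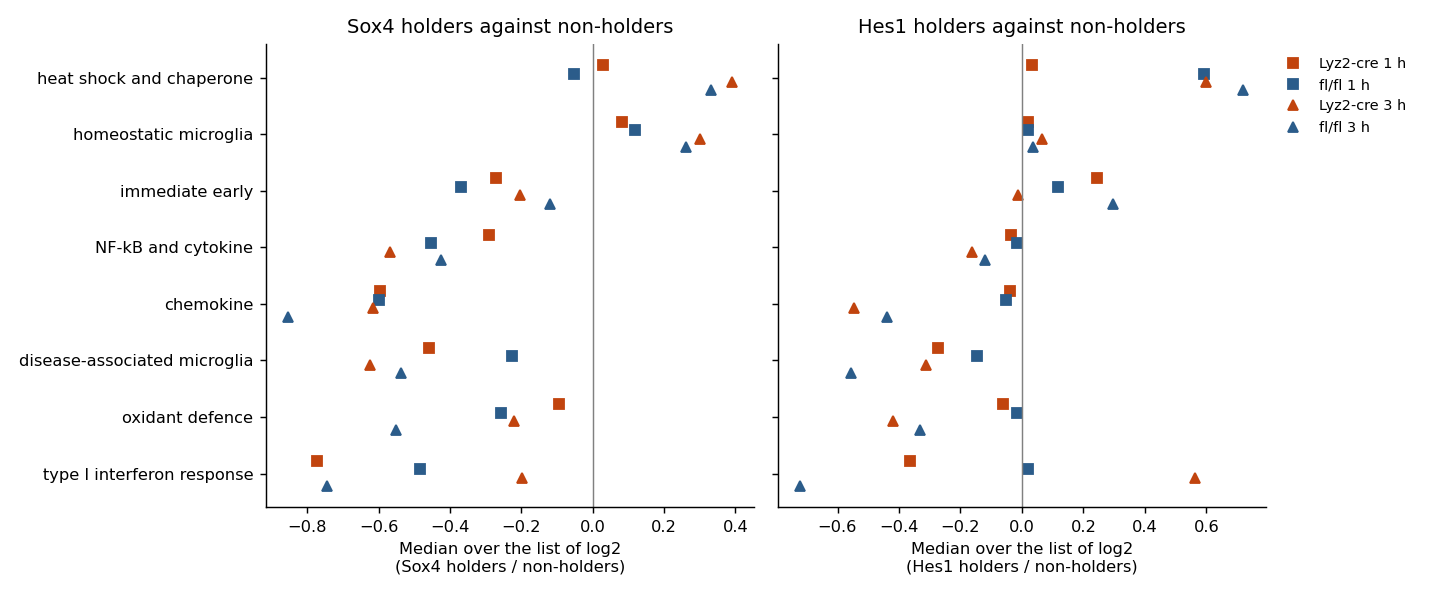
Median over each gene list of the log2 difference between holders and non-holders of Sox4 (left) and of Hes1 (right), 1 symbol for each of the 4 libraries at 1 h and 3 h; the line marks no difference. For Sox4 the chemokine medians lie between -0.85 and -0.60 in all 4 libraries while the heat shock medians are 0.39 and 0.33 at 3 h and 0.027 and -0.052 at 1 h (Lyz2-cre and fl/fl).

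The difference between Sox4 holders and non-holders itself changed between the times. In a test of that difference at 3 h against 1 h, 732 of 11419 genes passed (6.41%), 432 more positive (3.78%) and 300 more negative (2.63%) at 3 h. Of 16 heat shock genes 9 were more positive and 1 more negative at 3 h, and 10 of 15 homeostatic genes were more positive; the heat shock genes are again a description. Hspa1a (0.85), Hspa1b (0.71) and P2ry12 (0.37) were more positive at 3 h, and Rbpj (-0.57) and Notch1 (-0.45) were more negative. DESeq2 called 24 genes for this difference. Between Lyz2-cre and fl/fl the holder differences had 0 genes past the edgeR threshold of 11419 (0%), 155 at an unadjusted p under 0.05, and 2 under DESeq2.

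Among the regulators close to SOX4 and HES1, Notch1 and Rbpj were lower in Sox4 holders. Notch1, a Notch receptor, had 30.2, 34.0, 56.8 and 62.7 CPM in holders and 30.4, 48.2, 101 and 99.6 CPM in non-holders (-0.57 ± 0.10, edgeR adjusted p = 0.00597). Rbpj, the DNA-binding partner of the cleaved receptor, had 51.2, 60.5, 134 and 148 CPM in holders and 51.8, 77.9, 237 and 253 CPM in non-holders (-0.56 ± 0.11, edgeR adjusted p = 0.0181). The Lyz2-cre library at 1 h showed almost no difference in either gene, and both calls were lost without fl/fl 3 h (-0.52 and -0.47) or Lyz2-cre 3 h (-0.46 for each). Other annotated genes overlap both loci on the opposite strand, so their UMIs carry the same uncertainty. They were the only called members of 6 Notch receptors and ligands and of 26 processing genes and partners. Tle3, a co-repressor of HES proteins, had 75.8, 86.7, 83.1 and 85.3 CPM in holders and 64.3, 71.8, 57.9 and 50.6 CPM in non-holders (0.40 ± 0.08, edgeR adjusted p = 0.0127; 0.32 and 0.35 and not called without fl/fl 3 h or Lyz2-cre 3 h). Id2, an inhibitor of basic helix-loop-helix factors, was lower in holders (-0.48 ± 0.07, edgeR adjusted p = 0.0015), with 300, 447, 911 and 1185 CPM against 348, 587, 1242 and 1940 CPM.

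Of the genes that HES1 holds down in macrophages, 2 were tested, and both were lower in Sox4 holders. Neither passed in Hes1 holders (median -0.37). In microglia-like cells as a whole, 2 of 3 tested were higher at 3 h against naive, where 24.5% of 12914 genes were higher. Il6, the interleukin 6 gene, had 7.90, 10.8, 16.6 and 18.3 CPM in holders and 9.66, 16.8, 31.7 and 27.7 CPM in non-holders (-0.69 ± 0.11, edgeR adjusted p = 0.00294). Il12b, which encodes the p40 chain of interleukin 12, was close to 0 in holders, at 0, 0.365, 0.283 and 0.286 CPM, against 0.755, 3.05, 10.7 and 15.4 CPM in non-holders. Of 14 TGF-beta pathway genes 1 was lower (Tgif1, a TGF-beta co-repressor, -0.25) and none higher, and none of 2 other SOX genes or 2 SOX4 targets known from other cells passed. Tgif1 kept its call only without fl/fl 1 h among the alternatives that left out 1 library (-0.24 without fl/fl 3 h, -0.25 without Lyz2-cre 3 h, -0.19 without Lyz2-cre 1 h).

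Sox4 and Hes1 occurred together in the same cells more often at 3 h than at the other times. Hes1 was held by 3.24%, 11.5% and 17.1% of Sox4 holders and by 2.80%, 11.7% and 11.3% of non-holders in Lyz2-cre at naive, 1 h and 3 h. In fl/fl it was held by 3.84%, 9.07% and 16.4% of Sox4 holders and 3.23%, 9.02% and 9.69% of non-holders. The log2 odds ratios were 0.21, -0.035 and 0.69 in Lyz2-cre and 0.26, 0.0082 and 0.87 in fl/fl. The 3 h libraries were the highest and the 1 h libraries the lowest, without overlap between times. With cells thinned to 1500 UMIs they were 0.47, 0.20 and 0.84 in Lyz2-cre and -0.16, -0.046 and 0.90 in fl/fl, so that only 3 h stood apart. Over the 6 libraries the mean was 0.33 ± 0.37 (SD), positive in 5 of 6. Both genes were chosen from 1 cluster that held them, so no test of their co-occurrence is given. In the holder sums Hes1 had 71.7, 66.0, 349 and 174 CPM in Sox4 holders and 72.9, 50.2, 122 and 102 CPM in non-holders (0.69 ± 0.30). Hes6, a relative that counters HES1 in mouse neural cells, did not pass (0.20, edgeR adjusted p = 0.238).

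Cells with a Hes1 UMI differed from cells without one in fewer genes, and mostly upwards. Of 11136 genes, 244 passed (2.19%), 191 higher (1.72%) and 53 lower (0.476%) in Hes1 holders, with 132 without fl/fl 3 h, 77 without Lyz2-cre 3 h and 393 without Lyz2-cre 1 h. Adra2a, the alpha-2A adrenergic receptor gene, had 2.08, 8.75, 33.7 and 471 CPM in holders and 1.84, 4.42, 12.3 and 151 CPM in non-holders (1.61 ± 0.11). The orphan nuclear receptor gene Nr4a2 had 14.1, 11.4, 25.1 and 116 CPM in holders and 6.6, 5.96, 7.20 and 29.8 CPM in non-holders (1.71 ± 0.16, edgeR adjusted p = 2.47e-07). Both genes were highest in fl/fl at 3 h, on either side of the comparison. Their relative Nr4a1 had 229, 350, 327 and 554 CPM against 144, 233, 196 and 239 CPM (0.87 ± 0.10, edgeR adjusted p = 0.00107). The clock-related gene Ciart (1.0) and the HSP40 gene Dnaja4 (1.11) were also among the largest rises. Adra2a was among the genes that led cluster 12, with the heat shock genes, and Dnaja4 is a chaperone gene. The values of Adra2a and Dnaja4 are therefore a description and no independent support.

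Heat shock genes led the cluster for which Hes1 was chosen, so their values in Hes1 holders are a description and no independent support. Of the list, 7 of 16 genes were past the threshold upwards and none downwards (median 0.59 against 0.0015 over all genes). Hsph1, a gene of HSP110, had 20.3, 122, 596 and 1517 CPM in holders and 17.2, 52.1, 296 and 624 CPM in non-holders (1.16 ± 0.11). Hsp90aa1, the inducible HSP90 gene, had 433, 991, 3744 and 8073 CPM against 315, 470, 2014 and 3813 CPM (0.95 ± 0.10). The Lyz2-cre 1 h library had the smallest difference for both genes. Hspa1a had 622, 3714, 8768 and 22540 CPM in holders and 512, 1319, 3892 and 7254 CPM in non-holders (1.23 ± 0.30). With equal numbers per cluster 42 of 9507 genes passed (0.442%; 0.305% higher and 0.137% lower) and no heat shock gene did, while 6 immediate early and 2 TGF-beta genes were higher. Without cluster 14, 178 genes passed (1.63%; 1.25% higher and 0.385% lower), 8 heat shock genes among the higher. Sox4 had 957, 702, 1754 and 737 CPM in Hes1 holders and 812, 579, 772 and 385 CPM in non-holders, higher in 4 of 4 libraries (0.72 ± 0.25).

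Immediate early genes were higher in Hes1 holders (8 of 21, none lower), where they had been lower in Sox4 holders. Atf3, a stress-induced transcription factor gene, had 411, 613, 1188 and 2309 CPM in Hes1 holders and 242, 304, 779 and 1403 CPM in non-holders (0.83 ± 0.06, edgeR adjusted p = 2.38e-09). Smad7, the TGF-beta feedback inhibitor gene, had 783, 677, 904 and 904 CPM in holders and 631, 490, 567 and 544 CPM in non-holders (0.60 ± 0.07, edgeR adjusted p = 7.4e-06), and Skil, another inhibitor of the pathway, was higher by 0.39. These were the 2 called members of 13 TGF-beta genes. With the 1 h libraries alone 58 genes passed (0.528%; 0.491% higher and 0.0364% lower), of which 7 higher ones were immediate early, 3 of the TGF-beta list and 1 a heat shock gene. With the 3 h libraries alone 674 passed (6.18%; 4.22% higher and 1.96% lower), with 13 of 16 heat shock and 7 of 21 immediate early genes higher and 2 immediate early genes lower. Gadd45g, a growth arrest gene, had 153, 275, 520 and 248 CPM in Hes1 holders and 119, 151, 268 and 198 CPM in non-holders (0.72 ± 0.10, edgeR adjusted p = 0.00615), and 3 of 11 growth arrest and p53 genes were higher.

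Among the falls in Hes1 holders were Apoe, which encodes the main lipid carrier of the brain, and Cd74, the invariant chain of MHC class II. Apoe had 424, 381, 352 and 371 CPM in holders and 649, 626, 668 and 737 CPM in non-holders (-0.75 ± 0.06, edgeR adjusted p = 2.05e-08), without overlap. Cd74 had 42.7, 45.1, 62.4 and 145 CPM in holders and 57.7, 67.5, 88.8 and 339 CPM in non-holders (-0.69 ± 0.10, edgeR adjusted p = 0.00107). Of 16 disease-associated genes 5 were lower and none higher (median -0.28), and 1 of 9 chemokine genes was lower, Cxcl2 (-0.70; -0.57 and not called without Lyz2-cre 3 h). Rbpj had 45.8, 60.6, 137 and 165 CPM in Hes1 holders and 52.2, 70.1, 199 and 225 CPM in non-holders and was lower here too (-0.32 ± 0.07, edgeR adjusted p = 0.0178; -0.32 and -0.25 and not called without fl/fl 3 h or Lyz2-cre 3 h). The monocyte markers, which include Nr4a1, summed to 249, 359, 364 and 604 CPM in Hes1 holders and 170, 242, 230 and 267 CPM in non-holders. Nr4a1, whose values are given above, made up most of the sum on both sides in every library. The part of monocyte transcripts in these differences was not tested.

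Of the Notch genes around Hes1, most receptors and ligands were higher at 3 h in microglia-like cells as a whole. The sums of all microglia-like cells were fitted over genotype and time in the 6 libraries, where 6145 of 12914 genes passed at 3 h against naive (47.6%; 24.5% higher and 23.1% lower) and 3469 at 1 h (26.9%; 14.2% higher and 12.7% lower). Leaving out the fl/fl naive library left 2603 at 3 h, and leaving out any naive or 1 h library left between 926 and 1156 at 1 h. Of 6 Notch receptors and ligands tested, 5 were higher at 3 h and none lower (median 1.08 against -0.022 over all genes), and 2 were higher at 1 h. Notch1 had 46.3, 30.8 and 83.9 CPM in Lyz2-cre and 47.5, 41.6 and 88.7 CPM in fl/fl at naive, 1 h and 3 h (3 h against naive 0.97 ± 0.10, edgeR adjusted p = 5.92e-05). Notch2 stood at 59.3, 62.8 and 59.6 CPM, and 52.5, 64.4 and 54.8 CPM, and passed at 1 h (0.30, edgeR adjusted p = 0.0219) but not at 3 h (0.12, edgeR adjusted p = 0.237). The ligand gene Jag1 was near 0 in naive and 1 h libraries (0.230 to 0.353 CPM) and had 1.90 CPM in Lyz2-cre and 2.40 CPM in fl/fl at 3 h (2.80 ± 0.37, edgeR adjusted p = 0.000302). Notch1 was lowest at 1 h in both genotypes, though its difference from naive did not pass (-0.27, edgeR adjusted p = 0.061).

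Rbpj had 55.7, 51.2 and 200 CPM in Lyz2-cre and 49.8, 71.0 and 235 CPM in fl/fl at naive, 1 h and 3 h (3 h against naive 2.12 ± 0.14, edgeR adjusted p = 5.3e-05; 1 h against naive 0.30, edgeR adjusted p = 0.144). Lfng, a glycosyltransferase gene that tunes Notch receptors, was higher at 3 h (1.25), while its relative Mfng was lower (-0.69). Of 26 genes of Notch processing and partners, 5 were higher and 7 lower at 3 h, where 24.5% and 23.1% of all genes were. Of 3 other Notch targets tested, 2 were higher and 1 lower at 3 h. Myc was higher (1.29 ± 0.10, edgeR adjusted p = 1.11e-05), with 37.5, 32.3 and 98.0 CPM in Lyz2-cre and 51.9, 45.1 and 105 CPM in fl/fl. Nrarp, a Notch-induced feedback gene, was lower (-1.05 ± 0.27, edgeR adjusted p = 0.0207; -0.62 and not called without fl/fl naive). Hey1 was higher too (edgeR adjusted p = 0.00105), at 1, 3 and 26 UMIs in Lyz2-cre and 0, 2 and 10 in fl/fl at naive, 1 h and 3 h. Other classic targets were low, with 0 UMIs of Heyl, 11 of Hes5 and 18 of Hey2 in all microglia-like cells.

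Among the repressors related to HES1, apart from Hes1 itself, 7 of 12 were higher and 2 lower at 3 h (median 0.75). Id2 had 237, 308 and 1100 CPM in Lyz2-cre and 328, 507 and 1774 CPM in fl/fl at naive, 1 h and 3 h (2.41 ± 0.10, edgeR adjusted p = 2.43e-07), and Id3 (2.42) and the clock repressor gene Bhlhe40 (3.37) were higher too. Hes6 was lower, with 32.4, 27.3 and 23.5 CPM in Lyz2-cre and 31.3, 23.0 and 14.8 CPM in fl/fl (-0.67 ± 0.13, edgeR adjusted p = 0.00368; -0.47 and not called without fl/fl naive). Other SOX genes were near 0: of 4 tested, Sox8 was higher with 5, 46 and 33 UMIs in Lyz2-cre and 4, 23 and 19 in fl/fl at naive, 1 h and 3 h, and Sox6 was lower with 14, 7 and 2 UMIs and 34, 1 and 1. The closest relatives of Sox4 were as low, with 32 UMIs of Sox11 in all microglia-like cells and 0.986 to 1.95 CPM of Sox12 (3 h against naive -0.54, edgeR adjusted p = 0.139). Of the TGF-beta pathway 6 of 15 genes were higher and 1 lower at 3 h. Of the 16 heat shock genes 14 were higher at 3 h and none lower, and 5 were higher and 1 lower at 1 h.

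Among the leukocytes of these brains, Sox4 was highest in microglia-like cells, while the Hes1 ranges of several classes overlapped. The median Sox4 level over the 6 libraries was 600 CPM in microglia-like cells (390 to 832), 133 CPM in border-associated macrophage-like cells (2.33 to 264), 60.4 CPM in B cell-like, 44.0 CPM in natural killer cell-like, 24.9 CPM in neutrophil-like, 17.2 CPM in T cell-like and 13.7 CPM in monocyte-like cells (9.28 to 110). The first did not overlap any of the others, whose ranges overlapped each other. Pooled over libraries, Sox4 stood at 298 CPM in cluster 8.5 and at 3.96 to 51.2 CPM in the other border-associated macrophage-like clusters. It was also high in cluster 11.7 of natural killer cell-like cells (221 CPM) and cluster 6.2 of monocyte-like cells (267 CPM). Clusters 8.5, 11.7 and 6.2 also held 1445, 1653 and 940 CPM of the microglia gene P2ry12. The part of microglia transcripts in these levels was not tested. The 58 plasmacytoid dendritic cell-like cells, too few to compare by library, held 368 CPM pooled. Hes1 stood at a median of 62.6 CPM in microglia-like cells (13.1 to 198), 49.4 CPM in monocyte-like (27.4 to 111), 27.6 CPM in B cell-like, 14.6 CPM in natural killer cell-like and 11.9 CPM in border-associated macrophage-like cells (4.66 to 81.4), and at 2.05 CPM in neutrophil-like cells. T cell-like cells held 4 Hes1 UMIs in all, and 103 innate lymphoid cell-like cells held 283 CPM pooled.

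In monocyte-like cells, which the choice of the genes did not rest on, Hes1 was lower at the later times, where in microglia-like cells it was higher. It had 111, 46.9 and 27.4 CPM in Lyz2-cre and 73.0, 51.9 and 31.4 CPM in fl/fl at naive, 1 h and 3 h, and both 3 h libraries lay below both naive ones. The fall at 3 h passed (-1.45 ± 0.23, edgeR adjusted p = 0.00243; 20.7% of 9889 genes passed), and the value at 1 h did not (-0.89 ± 0.23, edgeR adjusted p = 0.182; 0.222% passed), though it did without the fl/fl naive library (-1.19). Lyz2-cre against fl/fl gave 0.063 (edgeR adjusted p = 0.986), and no gene of that contrast passed (0%; 544 at an unadjusted p under 0.05). The make-up of the class moved at the same time. Cluster 7, led by Ace, Ear2 and Treml4, genes of the patrolling monocyte, held 190 CPM of Hes1 pooled and made up 59.1%, 39.4% and 16.8% of Lyz2-cre and 52.5%, 49.7% and 15.6% of fl/fl monocyte-like cells at naive, 1 h and 3 h. Within cluster 7 Hes1 had 243, 210 and 171 CPM in Lyz2-cre and 170, 138 and 139 CPM in fl/fl. Sox4 did not pass in monocyte-like cells at 1 h (-0.22) or 3 h (-2.11), nor in neutrophil-like cells (0.30 and -0.70), where 0.409% and 29.3% of 8319 genes passed, except in neutrophil-like cells at 3 h without Lyz2-cre 3 h (-2.79).

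By Pearson correlation of log2(CPM + 1) over 42 library and class sums, the genes most like Sox4 of 11302 were Tmem44 (0.859), Anks6 (0.821), Ivns1abp (0.816), Rapgef5 (0.815) and Maged2 (0.815). Those most like Hes1 were BC035044 (0.833), Pld4 (0.783), Rassf4 (0.782), Ly86 (0.779) and Prcp (0.770). The sums share libraries and classes, and microglia-like cells set much of the pattern for Sox4. Over the 6 microglia-like sums alone Tmem44 had 0.531 with Sox4 and BC035044 had -0.835 with Hes1, so the likeness of BC035044 to Hes1 lay between classes and not along the time course.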

How the data were processed

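The deposited values are raw counts of UMIs per gene and barcode, made by the authors with Cell Ranger 3.0.2 on mm10, per the submitters' processing notes. The libraries were 3' tag libraries, per the labels' protocols, and the strand setting of the counting is not given in the sources used here. Of 51005 barcodes, 50634 passed a minimum of 300 detected genes and a mitochondrial share of UMIs up to 10%. The automatic threshold of Scrublet called 0 doublets, so the 0.8% per 1000 barcodes with the highest scores were removed (3557). Cells were scaled to 10000 UMIs and clustered (2000 variable genes, 30 principal components, 15 neighbours, resolution 1, 23 clusters), and clusters were named from marker lists, with at most 1.05% of a library left unnamed. Class names rest on these markers.

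Levels are CPM, scaled to the UMIs of the class and not to gene length, as the assay counts ends of transcripts. Holders have at least 1 UMI of the gene in a cell thinned to 2500 UMIs. Tests on sums of raw counts used edgeR 4.0.16 (limma 3.58.1, R 4.3.3; quasi-likelihood, robust, TMM, filterByExpr, Benjamini-Hochberg at 0.05), with library as a block in holder tests, and with genotype and time elsewhere. Brains were pooled and no group has a second library, so p-values rest on agreement across genotypes and times. Standard errors are the log2 difference over the root of F. Of the edgeR tests, only the Sox4 holder test and the 3 h against naive contrast of microglia-like cells were checked on simulated counts. DESeq2 1.42.0, edgeR's RLE factors, no filter, thinning to 1500 or 4000 UMIs, holders of at least 2 UMIs, all 6 libraries, kept doublets, stricter cell filters (1000 genes, 5% mitochondrial) and leaving out each library were alternatives, and others were chosen after seeing the data. Python 3.11.15, scanpy 1.11.5 and scipy 1.17.1 were used. Promoter sequence is from RefSeq, which held 1 of the 2 genes' promoters in the table used.

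Both genes and all lists were chosen with earlier results of these data known. Named in each holder test are the 10 largest rises and falls among called genes that moved the same way in all 4 libraries and averaged at least 20 CPM, and up to 3 called members per list. For the time fit up to 4 called members per pathway list are named, and family members may be named always; 1 gene that the rule names is not reported here. Smad7, Ciart and other genes named here fall under this rule. Hspa1a, and Sox4 and Hes1 in each other's holders, are given because the bins and the choice of genes rest on them.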

Additional observations from a re-analysis of the deposited data

Results flagged for a closer look

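The difference between Sox4 holders and non-holders was itself different at 3 h and 1 h for 732 genes in edgeR's quasi-likelihood test with Benjamini-Hochberg adjustment. Among the genes named in the report, the log2 difference at 3 h minus that at 1 h was 0.85 for Hspa1a, 0.71 for Hspa1b, 0.63 for Gm40841, 0.55 for Pdk1, 0.53 for Gm4673, 0.52 for Rgs3 and 0.40 for 3222401L13Rik, all higher in holders more strongly at 3 h. It was 0.40 for Gpr34, 0.37 for P2ry12 and 0.34 for P2ry13 of the homeostatic list and 0.39 for Tle3. It was negative for Rbpj (-0.57), Notch1 (-0.45) and Plaur (-0.35), and for the stress and metabolic genes Txnrd1 (-0.61), Slc2a1 (-0.59), Xbp1 (-0.50), Ldha (-0.38) and Atf4 (-0.35), all lower in holders more strongly at 3 h.

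The Sox4 level moved in opposite directions in the genotypes. The log2 ratio of CPM at 3 h over naive was 0.45 in Lyz2-cre and -0.61 in fl/fl microglia-like cells, and that at 1 h over naive was 0.41 and -0.054. With TMM-scaled sizes the fl/fl value at 1 h was 0.023, so at 1 h the direction in fl/fl depends on the scaling. With 1 library on each side these differences were not tested.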

How the results depend on the processing

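The alternatives without cluster 14, with equal numbers per cluster and with the libraries of 1 time only were chosen after seeing the data. Against 700 genes in Sox4 holders, the counts were 1240 at 4000 UMIs, 444 with 2 UMIs for a holder, 406 without cluster 14, 131 with equal numbers per cluster, 334 with DESeq2, 1361 with no filter, 212 with all 6 libraries, and 2653 and 178 with the 3 h and the naive libraries only. Against 244 in Hes1 holders they were 157, 178 without cluster 14, 42 with equal numbers, 106 with DESeq2, 393 with no filter, and 58, 674 and 10 with the 1 h, 3 h and naive libraries only. The 732 of the time difference were 348 at 1500 and 384 at 4000 UMIs and 24 with DESeq2, the 0 of the genotype difference were 3 at 1500 UMIs and 2 with DESeq2, and the 3469 at 1 h were 2066 with DESeq2. Leaving out 1 library gave 235 to 1372 genes for Sox4 holders, 77 to 393 for Hes1 holders, 926 to 4696 at 1 h and 2603 to 5963 at 3 h. The mean log2 odds ratio then ran 0.23 to 0.41. The Hes1 log2 fold in monocyte-like cells ran -1.77 to -1.01 at 3 h, -1.19 to -0.44 at 1 h (-0.88 and called with no filter) and -0.18 to 0.23 for genotype. That of Sox4 ran -3.64 to 0.074, -2.62 to 1.65 and -1.62 to 0.82, and in neutrophil-like cells -2.79 to 0.26, -0.54 to 1.48 and -0.11 to 1.61. With TMM-scaled sizes the Sox4 log2 ratios of 3 h and 1 h over naive were 0.53 and 0.54 in Lyz2-cre and -0.48 and 0.023 in fl/fl, and those of Lyz2-cre over fl/fl were -0.026 in naive and 0.98 at 3 h, with 0.73 for Hes1 at 3 h, so the fl/fl 1 h and naive genotype ratios changed sign. With doublets kept, 3 h over naive was 0.42 in Lyz2-cre and the genotype ratio at 3 h 1.03, and without cluster 14 3 h over naive was 0.41 in Lyz2-cre and -0.65 in fl/fl. Of the named genes, signs turned with the naive libraries only for Gm4673 (-0.046), Rgs3 (-0.0047), Lgals3 (0.079), Id2 (0.080), Ier3 (0.019), Fabp5 (0.11), Cdkn1a (0.13), Hes6 (-0.015), Notch2 (-0.12) and Hspa1a (-0.11) in Sox4 holders, and for Hsph1 (-0.21), Dnaja4 (-0.19), AC160336.1 (-0.026), Srxn1 (0.49), Eef1e1 (0.13), Nifk (0.39), Tle3 (-0.062), Nfkbid (-0.000792) and Hspa1a (-0.030) in Hes1 holders. With equal numbers per cluster they turned for Tgif1 (0.00858) and Hspd1 (-0.11). The cause was not tested. Of the calls of named genes, DESeq2 kept 79 and lost 21, equal numbers per cluster kept 25, lost 52 and turned 2, and leaving out 1 library kept 356 and lost 84. The holder tests paired holders and non-holders within each library. Between the groups no paired analysis was possible because each group has a single library, so the groups share only the number 1. Counting error is small for Sox4 and Hes1 in microglia-like cells, and the spread between pools is unknown.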
